A study of Homo sapiens with 12 samples.

Results

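Reporter variants whose 6 bases before a premature stop codon lie at either end of the range of base composition were compared. GC-rich windows have 5 or 6 G or C bases among these 6 bases, and AT-rich windows have 0 or 1. Each variant is a 10-base sequence made of a penultimate codon, a last codon, a stop codon (TAA, TAG or TGA) and 1 following base. Windows with an in-frame stop codon at either of the first 2 codons were left out, which removes 91 AT-rich windows and 0 GC-rich ones, and leaves 448 possible GC-rich and 357 possible AT-rich windows. The members were found from the sequence alone: 13745 of the 93261 variants listed in the 2 tables, of which 6305 belong to the EJC-independent and 7440 to the EJC-enhanced reporter. The same windows followed by TGG, the codon of tryptophan, serve as controls without a stop codon.

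The measurements come from HEK293T cells, an established human embryonic kidney line, with a wild-type background and 1 of 2 reporter libraries inserted at a single genomic place by Cre-Lox recombination. Each reporter was measured in 3 libraries of cells given DMSO, the solvent, and in 3 libraries of cells given SMG1i at 0.5 µM, both for 24 hours, so there are 4 groups and 12 libraries. Replicate libraries are numbered, and nothing says whether they came from separate cultures. Each variant is located only by its sequence within the reporter, because the coordinates of the insertion were not given in the sources used here.

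Nonsense-mediated mRNA decay (NMD) removes mRNAs on which translation ends too early. When a ribosome stops at a premature stop codon, the helicase UPF1 is phosphorylated by the kinase SMG1, and factors that cut, decap and shorten the mRNA follow. An exon junction complex left downstream of the stop codon by splicing strengthens this decay, and some mRNAs are decayed without such a complex. The last codon before the stop codon is read by the tRNA that still holds the finished peptide in the P site of the ribosome, and release of the peptide requires that this bond be cut. The series asks how the sequence around the stop codon bears on NMD. Base composition bears on that question because a GC-rich and an AT-rich window encode largely different amino acids.

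A variant's response is its RNA with SMG1i relative to DMSO, as a log2 value. Neither table names the numerator of its ratio. Stop variants are negative there and TGG variants centre near 0, and the sign was turned so that a larger response means more RNA when SMG1 is inhibited. The tables hold 1 value per variant and no value per library, so the spread between libraries enters only through the deposited standard error (SE) of each variant. Unless another unit is named, the errors and 95% intervals of means given here run over windows of 6 bases. Each window is the mean of its measured stop variants. Windows are sequences in the same libraries and not replicate cultures, so no p-value was computed over them.

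The 20 sequences below show what the ends look like. For each last amino acid that occurs at both ends, the member with the highest mean count in the EJC-independent table is shown among those listed in both tables with their TGG counterparts. The stop codon is in capitals, the 6 bases of the window stand before it, and the last letter is the following base.
GC-rich, cysteine last: ccctgcTAAc
AT-rich, cysteine last: ttttgtTGAc
GC-rich, aspartate last: cccgacTAAg
AT-rich, aspartate last: tatgatTAGc
GC-rich, glutamate last: cccgagTAAc
AT-rich, glutamate last: tttgaaTAGc
GC-rich, histidine last: ccccacTAAc
AT-rich, histidine last: tttcatTAGc
GC-rich, leucine last: cccctcTGAc
AT-rich, leucine last: tttcttTGAt
GC-rich, glutamine last: ccccagTAAt
AT-rich, glutamine last: tatcaaTAGt
GC-rich, arginine last: ccccgcTAAc
AT-rich, arginine last: tttagaTGAc
GC-rich, serine last: ccctccTGAt
AT-rich, serine last: atttctTAAc
GC-rich, threonine last: cccaccTAAc
AT-rich, threonine last: tatactTGAc
GC-rich, valine last: cccgtcTGAc
AT-rich, valine last: ttagttTGAt
All 10 GC-rich examples have the proline codon CCC in penultimate position, while the AT-rich ones have codons of phenylalanine, tyrosine, isoleucine or leucine there. The ends therefore differ in the penultimate amino acid even when the last amino acid is the same.

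AT-rich members were sparser and shallower than GC-rich members in both libraries. The EJC-independent table lists 4177 of 5376 possible GC-rich stop variants (77.7%) and 2128 of 4284 possible AT-rich ones (49.7%). The EJC-enhanced table lists 4687 of 5376 (87.2%) and 2753 of 4284 (64.3%). At mean normalized counts from 10 up, 4167 GC-rich and 2110 AT-rich members remained for the EJC-independent reporter, and 4685 and 2745 for the EJC-enhanced reporter. The median mean count of these members was 423 at the GC-rich and 137 at the AT-rich end of the EJC-independent reporter, and 237 and 85.5 for the EJC-enhanced reporter. The median SE of a single response was accordingly smaller for GC-rich than for AT-rich members, 0.25 against 0.44 in the first table and 0.48 against 0.67 in the second. TGG controls showed the same order, with median mean counts of 627 and 159 in the first table and 482 and 171 in the second.

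In the EJC-independent reporter, GC-rich windows before a stop codon had a higher response than AT-rich windows. Averaged over windows, the response was 1.82 for 443 GC-rich and 1.61 for 348 AT-rich windows, a difference of 0.20 (1.15-fold, 95% interval 0.15 to 0.26). Single members spread around their end's mean by 0.54 (GC-rich) and 0.69 (AT-rich, SD over variants), so the difference between the ends is smaller than the spread within either. Members with 2 to 4 G or C bases lay between them, at 1.71 over 22687 variants, where GC-rich members averaged 1.80 and AT-rich members 1.61.

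The ends lay close together in the EJC-enhanced reporter, and the sign of their difference depended on the depth of the variants used. Its response was 2.28 for 448 GC-rich and 2.25 for 352 AT-rich windows, a difference of 0.02 (95% interval -0.03 to 0.08), which leaves out a difference as large as that of the EJC-independent reporter. Members with 2 to 4 G or C bases averaged 2.29 there, against 2.29 for GC-rich and 2.27 for AT-rich members over variants. The difference between the ends was larger in the EJC-independent than in the EJC-enhanced reporter by 0.18 (95% interval 0.10 to 0.26). That comparison subtracts values within each table, since the tables were normalized apart. The EJC-enhanced difference turned to -0.063 (interval -0.12 to -0.0015) at mean counts from 50 up and to -0.097 (interval -0.18 to -0.01) from 100 up. It was -0.10 (interval -0.18 to -0.03) for variants listed in both tables, so AT-rich windows were the higher ones in these subsets. A mean count includes the libraries under the inhibitor, so a high response itself helps a variant past a count minimum. AT-rich members were the shallower ones, and whether this selection has a part in the turned sign was not tested. Before G alone, the difference between the reporters was 0.01 (interval -0.13 to 0.16).

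Most members had significantly more RNA under the inhibitor by the authors' own adjusted p under 0.05. For the EJC-independent reporter, 64.8% of all variants with an adjusted p were higher in the authors' deposited table, as were 84.9% of the stop variants with sense windows, while 0.0104% of the latter were lower. GC-rich members were higher in 3766 of 4165 (90.4%, Wilson 95% interval 89.5 to 91.3) and AT-rich members in 1626 of 2108 (77.1%, interval 75.3 to 78.9), with 0 and 2 lower, in the authors' deposited table. The EJC-enhanced reporter had 63.9% of all variants and 86.1% of stop variants higher, and 0.00291% of stop variants lower, in the authors' deposited table. Its GC-rich members were higher in 4217 of 4665 (90.4%) and its AT-rich members in 2165 of 2730 (79.3%), with 0 lower at either end, by the authors' deposited table. AT-rich members were also the shallower ones in both tables. Among members with a mean count from 100 to 400, the shares came closer, to 97.4% (interval 96.3 to 98.2) and 93.4% (interval 91.4 to 94.996) in the EJC-independent and to 95.3% (interval 94.2 to 96.1) and 92.3% (interval 90.5 to 93.8) in the EJC-enhanced reporter, with the GC-rich share still the larger one. The Wilson intervals cover counting error over variants only.

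Mean response rose with the number of G or C bases in the EJC-independent reporter. It was 1.52 with 0 G or C bases (48 windows), 1.63 with 1, 1.69 with 2, 1.71 with 3, 1.76 with 4, 1.81 with 5 and 1.86 with 6 (64 windows). The windows just inside the limits of the ends, with 5 and with 1 G or C base, thus lay close to those just outside, with 4 and with 2. Values in the EJC-enhanced reporter ran from 2.17 with 0 and 2.27 with 1 over 2.29 with 3 to 2.28 with 5 and 2.25 with 6, with no rise from the middle to the GC-rich end. When the mean of each window's last amino acid over all sense windows was subtracted first, the EJC-independent reporter no longer rose from 1 to 5 G or C bases, with -0.0049 ± 0.02 (SE over windows) at 1, -0.01 ± 0.01 at 3 and 0.01 ± 0.01 at 5. The windows at 0 and at 6 then stood at -0.06 ± 0.07 and 0.02 ± 0.03. EJC-independent TGG windows rose too, from -0.11 with 0 and -0.05 with 1 to -0.02 with 5 and 0.04 with 6 G or C bases. After subtraction of the TGG variant with the same window and following base, the means were 1.62 with 0, 1.63 with 1, 1.83 with 5 and 1.82 with 6.

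The last amino acid differs strongly between the ends. GC-rich windows end in codons of 14 amino acids and AT-rich windows in codons of 16, and 10 amino acids occur at both. Alanine, glycine, proline and tryptophan occur as last codon only at the GC-rich end. Asparagine, isoleucine, lysine, methionine, phenylalanine and tyrosine occur only at the AT-rich end. If every window had the mean response of its last amino acid, GC-rich windows would exceed AT-rich windows by 0.18 in the EJC-independent reporter and by -0.01 in the EJC-enhanced reporter. The remainder, the deviation from these amino acid means, differed between the ends by 0.03 (95% interval -0.03 to 0.08) and by 0.03 (interval -0.02 to 0.09). The amino acid means include the members themselves, so this split is a description of how the difference is made up.

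Among the amino acids found at the GC-rich end alone, glycine stood out in the EJC-independent reporter. Glycine, the smallest amino acid, averaged 2.16 over 76 GC-rich windows (SD 0.37). Proline, whose ring makes it a slow partner in peptide bond formation, averaged 1.80 over 80 windows (SD 0.15), and alanine 1.73 over 80 (SD 0.25). Tryptophan had 1.38 over 8 windows (SD 0.38), the lowest of these 4. The 4 lay close together in the EJC-enhanced reporter, at 2.26 for glycine, 2.27 for proline, 2.26 for alanine and 2.32 for tryptophan.

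Of the 6 amino acids found at the AT-rich end alone, tyrosine, phenylalanine and asparagine were the lowest in the EJC-independent reporter. The aromatic amino acids tyrosine and phenylalanine averaged 1.44 (35 windows, SD 0.32) and 1.46 (36 windows, SD 0.22). Asparagine had 1.56, isoleucine 1.69, lysine, which is positively charged, 1.70 and methionine 1.72 over only 6 windows. All 6 lay below glycine, proline and, more narrowly, alanine (1.73) at the GC-rich end, and above tryptophan (1.38) there. In the EJC-enhanced reporter the order was different, with lysine lowest at 2.09, asparagine at 2.16, phenylalanine at 2.23, tyrosine at 2.26, methionine at 2.27 and isoleucine highest at 2.31.

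Within the same last amino acid, the difference between the ends was small in both reporters. Over the 10 amino acids with both ends, weighted equally, GC-rich windows exceeded AT-rich windows by 0.08 in the EJC-independent reporter (SD over amino acids 0.19, 95% interval -0.02 to 0.18), with 7 amino acids above 0 and 3 below. The EJC-enhanced reporter gave -0.05 (SD 0.19, interval -0.20 to 0.09), with 4 above and 6 below. Both intervals include 0, as does that of the difference between the reporters, 0.14 (interval -0.04 to 0.31). The EJC-independent value depended on the settings. It rose to 0.12 (interval 0.02 to 0.22) without penultimate arginine, to 0.12 (interval 0.01 to 0.22) without aspartate and to 0.11 (interval 0.0036 to 0.22) without glutamine as last amino acid. It fell to 0.0077 at mean counts from 50 up, to -0.00039 when variants were weighted by their SE and to -0.011 with ends of 4 to 6 and 0 to 2 G or C bases. Over windows with at least 6 of their 12 stop variants, a choice made after the data were seen, it was -0.04 (interval -0.12 to 0.04) for 8 amino acids. Of 30 such settings, 5 gave an interval that leaves out 0 and 25 gave one that includes it.

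The amino acids did not move in 1 direction in the EJC-independent reporter. Glutamate, an acidic amino acid, had 2.01 at the GC-rich end (8 windows) and 1.64 at the AT-rich end (7 windows). Its difference was the largest at 0.37 (95% interval 0.03 to 0.72). Aspartate, also acidic, went the other way, with 1.85 and 2.07 and a difference of -0.22 (interval -0.47 to 0.03). The acidic pair thus did not share a direction.

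Leucine and cysteine were higher at the GC-rich end of the EJC-independent reporter. Leucine, the only matched amino acid with 50 AT-rich windows, gave 1.70 against 1.52, a difference of 0.18 (interval 0.06 to 0.29). No last codon occurs at both ends: the GC-rich leucine codons are CTC and CTG, and the AT-rich ones CTA, CTT, TTA and TTG. Cysteine, which carries a thiol, gave 1.70 against 1.48, a difference of 0.22 (interval 0.01 to 0.42). Histidine had 1.54 against 1.41, at 0.13 (interval -0.01 to 0.26), with the smallest spread between GC-rich windows, an SD of 0.07.

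Glutamine was lower at the GC-rich end, 1.36 against 1.54, a difference of -0.18 (interval -0.38 to 0.02). Its GC-rich codon is CAG and its AT-rich codon CAA. Arginine had 1.70 over 87 GC-rich and 1.44 over 7 AT-rich windows, with an SD of 0.97 between the latter, and the difference of 0.26 has an interval from -0.46 to 0.98. The AT-rich arginine windows all end in AGA, while most GC-rich ones end in codons that begin with CG.

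Serine, threonine and valine differed little between the ends of the EJC-independent reporter. Serine had 1.85 and 1.77 (difference 0.08, interval -0.06 to 0.22), and threonine, high at both ends, 2.04 and 2.01 (difference 0.03, interval -0.28 to 0.34). Valine had 1.76 and 1.79, with a difference of -0.04 (interval -0.26 to 0.18). Among GC-rich windows, only those ending in glycine, threonine or glutamate averaged more than the AT-rich threonine windows.

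In the EJC-enhanced reporter 4 of the same 10 amino acids were higher at the GC-rich end. Serine had 2.36 against 2.15 (difference 0.21, interval -0.06 to 0.47), valine 2.36 against 2.24 (0.12), cysteine 2.41 against 2.33 (0.07) and glutamate 2.13 against 2.07 (0.06). Leucine had 2.25 at both ends (difference -0.01, interval -0.13 to 0.12). Aspartate gave 2.37 against 2.62 (difference -0.25, interval -0.63 to 0.13), and arginine 2.27 against 2.65 over 5 AT-rich windows (-0.39, interval -1.28 to 0.51). No interval of these 10 left out 0, whereas those of glutamate, leucine and cysteine did so in the EJC-independent reporter. For glutamate and cysteine they rest on 8 GC-rich and 7 AT-rich windows each, with lower limits of 0.03 and 0.01. An interval that assumes a normal spread is too narrow for so few windows. The difference between the reporters was not computed for single amino acids, so these intervals do not set the reporters apart. Of the amino acids, aspartate, glutamine and valine were the 3 below 0 in the EJC-independent reporter, and of these aspartate and glutamine were below 0 in the EJC-enhanced reporter too.

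The TGG controls gave the size of what the windows do without a stop codon. Over all last amino acids, GC-rich TGG windows exceeded AT-rich ones by 0.05 in the EJC-independent reporter (-0.01 against -0.06, 95% interval of the difference -0.02 to 0.12) and by 0.07 in the EJC-enhanced reporter (0.05 against -0.02, interval 0.02 to 0.13). Within the same last amino acid, the controls gave -0.12 (interval -0.29 to 0.05) and 0.15 (interval -0.002 to 0.31). They thus went opposite ways in the 2 tables, though both intervals include 0. With ends at 4 to 6 and 0 to 2 G or C bases they were -0.0031 and 0.0067. The reporters then differed by -0.0098 (interval -0.08 to 0.06) in the controls. In the EJC-enhanced reporter 9 of 10 amino acids were above 0 in the controls, the exception being arginine, and the largest was aspartate at 0.71 (0.36 against -0.35). Of 1446 GC-rich controls of the EJC-independent reporter, 98 were higher and 57 lower in the authors' deposited table, and of 793 AT-rich controls 27 were higher and 30 lower. Over all TGG variants with sense windows, that authors' deposited table has 4.09% higher and 4.03% lower. Of the EJC-enhanced controls, 31 were higher and 13 lower of 1691 at the GC-rich end and 32 higher and 34 lower of 1150 at the AT-rich end of the authors' deposited table, where 2.76% of all TGG variants were higher and 1.38% lower. The shares higher were thus 6.78% (GC-rich) and 3.40% (AT-rich) in the EJC-independent and 1.83% and 2.78% in the EJC-enhanced reporter. Among controls with a mean count from 100 to 400 they were 2.42% and 4.02%, and 3.18% and 2.62%, so the order turned in both reporters.

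Subtracting from each stop variant the TGG variant with the same 6 bases and following base left the unmatched difference between the ends in place for the EJC-independent reporter. It was then 0.21 (1.83 over 426 and 1.63 over 273 windows, 95% interval 0.11 to 0.30), and -0.04 (2.23 and 2.27, interval -0.12 to 0.04) for the EJC-enhanced reporter. Within the same last amino acid it became 0.23 (interval -0.02 to 0.49, 8 of 10 above 0) and -0.22 (interval -0.42 to -0.01, 3 of 10 above 0). In each table the TGG windows of these amino acids had gone the opposite way from the stop windows. Aspartate carried much of the value of the EJC-enhanced reporter, at -1.08 (2.06 against 3.14), and without it the value was -0.12. The EJC-enhanced interval left out 0 in 15 of 30 other settings and included it in 15, such as each stop codon alone and the weighting by SE, at -0.12 (interval -0.31 to 0.06). The EJC-independent value fell to -0.0028 (interval -0.15 to 0.14) at mean counts from 100 up. The difference between the reporters after this subtraction was 0.45 (interval 0.12 to 0.78), and 0.23 (interval -0.0064 to 0.47) at mean counts from 100 up. With ends widened to 4 to 6 and 0 to 2 G or C bases, which brings all 20 amino acids in, the EJC-independent value was 0.05 and the EJC-enhanced value turned to 0.07 (interval 0.01 to 0.13). The difference between the reporters was then -0.02 (interval -0.12 to 0.08). With the ends as defined, the reporters differed by -0.27 (interval -0.50 to -0.04) in the TGG windows alone. In the stop windows alone they differed by 0.14 (interval -0.04 to 0.31), so the 0.45 holds a larger part from the controls.

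The penultimate codon alone did not raise the response with its G or C content. With the last codon held fixed, penultimate codons of 3 G or C bases, which encode alanine, arginine, glycine or proline, were set against those of 0, which encode asparagine, isoleucine, leucine, lysine, phenylalanine or tyrosine. In the EJC-independent reporter the former averaged 1.72 and the latter 1.77, a difference of -0.05 (SD over 61 last codons 0.18, 95% interval -0.10 to -0.01), with 25 codons above 0 and 36 below. The EJC-enhanced reporter gave 2.27 and 2.24, a difference of 0.02 (SD 0.22, interval -0.03 to 0.08), with 32 above and 29 below. Followed by G alone, the EJC-independent value was 0.0038 (interval -0.10 to 0.10), and without windows that hold a CG dinucleotide it was -0.0040. Its interval left out 0 in 7 of 15 other settings. These intervals run over last codons and not over windows. TGG windows gave -0.02 (interval -0.07 to 0.04) in the EJC-independent and 0.06 (interval 0.01 to 0.12) in the EJC-enhanced reporter. After subtraction of TGG the differences were 0.02 (interval -0.09 to 0.12, 36 of 61 codons above 0) and 0.0062 (interval -0.08 to 0.10, 27 of 61 above 0).

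Penultimate amino acids also differed from each other within each end. GC-rich windows of the EJC-independent reporter had 1.90 with glycine (78 windows), 1.89 with proline (80), 1.82 with alanine (79) and 1.68 with arginine (87) in this place, so arginine, which is positively charged, was the lowest of these 4. AT-rich windows ranged among the amino acids with at least 30 windows from 1.49 with leucine (50) over 1.57 with asparagine and 1.61 with phenylalanine to 1.66 with tyrosine, 1.74 with lysine (33) and 1.74 with isoleucine (61). Valine, with 14 AT-rich windows, had 1.88. In the EJC-enhanced reporter the GC-rich values were 2.31 with proline, 2.29 with alanine, 2.27 with glycine and 2.24 with arginine, a narrower range.

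The third base of the last codon could be varied without changing the amino acid. With the penultimate codon, the amino acid and the first 2 bases of the last codon held fixed, codons ending in G or C exceeded those ending in A or T by 0.03 in both reporters, 0.031 (95% interval 0.006 to 0.055, 1252 strata, 712 above 0) in the EJC-independent and 0.025 (interval 0.001 to 0.050, 1265 strata, 665 above 0) in the EJC-enhanced reporter. Leucine codons that begin with TT gave 0.15 (TTG against TTA), glutamate 0.12 and valine 0.11 in the EJC-independent reporter, while glycine gave 0.0036 and arginine codons that begin with AG -0.14. The EJC-enhanced value turned to -0.016 at mean counts of at least 100, to -0.01 before TAA alone, to -0.019 with a mean count from 100 to 400 and to -0.0095 for variants listed in both tables. Intervals left out 0 in 9 of 15 other settings for the EJC-independent and in 5 of 15 for the EJC-enhanced reporter. These intervals run over strata and not over windows. TGG windows gave 0.019 (interval -0.011 to 0.050) in the EJC-independent and -0.012 (interval -0.040 to 0.017) in the EJC-enhanced reporter. After subtraction of TGG the values were 0.023 (interval -0.018 to 0.064) and 0.054 (interval 0.015 to 0.093).

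Each stop codon showed the higher response of the GC-rich end in the EJC-independent reporter. GC-rich members averaged 1.92 before TGA, 1.76 before TAA and 1.73 before TAG, and AT-rich members 1.69, 1.60 and 1.54. The difference over windows was 0.23 for TGA (95% interval 0.16 to 0.31), 0.17 for TAA (0.09 to 0.25) and 0.21 for TAG (0.14 to 0.28). TGA was the highest stop codon at both ends. The EJC-enhanced differences were -0.05 for TAA, 0.09 for TAG and 0.02 for TGA, and each interval includes 0.

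Following bases also left the sign of the EJC-independent difference alone. It was 0.22 before A, 0.17 before C, 0.16 before G and 0.22 before T, and none of the 4 intervals includes 0. In the EJC-enhanced reporter the sign depended on the following base, with -0.09 before C (95% interval -0.16 to -0.02) and 0.15 before G (interval 0.04 to 0.26). There, AT-rich members followed by C averaged 2.36 and those followed by G 2.17, while GC-rich members were level at 2.27 and 2.30. Within the same last amino acid, the EJC-enhanced values were -0.24 (interval -0.43 to -0.06) before C and 0.23 (interval -0.03 to 0.49) before G. The EJC-independent value before T alone was 0.19 (interval 0.02 to 0.35), against -0.0055 before A, where 9 amino acids had both ends.

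CG dinucleotides and the number of G or A bases were compared within the ends. Of the 448 possible GC-rich windows, 329 hold a CG dinucleotide (73.4%), and 0 of the AT-rich windows do. In the EJC-independent reporter GC-rich windows averaged 1.85 without CG (116 windows), 1.82 with 1 and 1.77 with 2 or more (70 windows), and 0.03, 0.01 and -0.0019 relative to their last amino acids. The EJC-enhanced reporter had 2.27, 2.27 and 2.30. By the number of G bases, EJC-independent GC-rich windows ran from 1.80 with 0 G (13 windows) over 1.81 with 3 to 1.88 with 4 (73 windows) and 2.08 with 5 (15 windows). Relative to their last amino acids these values were 0.03, -0.0037, -0.01 and 0.10, and the 15 windows with 5 G had an SD of 0.88. AT-rich windows by the number of A bases ran from 1.48 with 0 A (13 windows) over 1.60 with 2 to 1.76 with 4 (49 windows) and 1.43 with 5 (15 windows, SD 0.98).

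Depth differed between the ends, so members were also grouped by mean count, a choice made after the data were seen. In the EJC-independent reporter the GC-rich end was higher by 0.08 (95% interval -0.06 to 0.21) at counts from 10 to 50, by 0.26 from 50 to 100, by 0.23 from 100 to 400 and by 0.22 (interval 0.19 to 0.25) from 400 up. The same classes of the EJC-enhanced reporter gave 0.02, 0.02, -0.03 and -0.09 (interval -0.19 to 0.02). Intervals of these classes run over single members, several of which can share a window. Since a mean count includes the libraries under the inhibitor, a variant with a high response is carried into a higher class by that response.

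Grouping members by their mean count in the other reporter's table avoids that link, and it separated the ends in the EJC-enhanced reporter. AT-rich members had an EJC-enhanced response of 2.17 (354 members) where their EJC-independent count was from 10 to 50, of 2.22 from 50 to 100, of 2.36 from 100 to 400 and of 2.59 (454 members) from 400 up. GC-rich members had 2.27, 2.19, 2.27 and 2.35. In the highest class AT-rich members thus exceeded GC-rich ones, with a difference of GC-rich minus AT-rich of -0.23 (95% interval -0.32 to -0.15), against 0.10 (interval -0.01 to 0.22) in the lowest. Both intervals run over single members and not over windows. The EJC-independent response by EJC-enhanced count fell instead, for AT-rich members from 1.67 to 1.51, and the GC-rich end was higher in each class, by 0.15 to 0.26. Medians moved the same way, from 2.14 to 2.46 for AT-rich members of the EJC-enhanced reporter. Whether depth has a part in these differences was not tested.

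Most of the 10 pairs of highly counted sequences differed little in the EJC-independent reporter. All 10 also differ outside the window, 8 of them in the stop codon and 4 in the following base, so no pair compares the windows alone. For cysteine, the EJC-independent values in the authors' deposited table are ccctgcTAAc at 1.45 ± 0.05 (SE) and ttttgtTGAc at 1.42 ± 0.12. For aspartate, the authors' deposited table has cccgacTAAg at 2.04 ± 0.07 and tatgatTAGc at 1.94 ± 0.17. For glutamate, it is 1.76 ± 0.10 for cccgagTAAc and 1.47 ± 0.24 for tttgaaTAGc in the authors' deposited table. Each of these 3 pairs differs by less than the 95% interval from the deposited SEs.

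Histidine, leucine and serine pairs were as close. The authors' deposited table gives ccccacTAAc 1.44 ± 0.05 and tttcatTAGc 1.27 ± 0.13 for histidine. It lists cccctcTGAc at 1.61 ± 0.04 and tttcttTGAt at 1.50 ± 0.06 for leucine, again in the authors' deposited table. Serine had 1.92 ± 0.06 for ccctccTGAt and 1.90 ± 0.11 for atttctTAAc in the authors' deposited table. The serine pair differed by 0.02, and all 3 intervals include 0.

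Glutamine and valine were the pairs whose EJC-independent intervals left out 0, in opposite directions. The authors' deposited table has ccccagTAAt at 1.20 ± 0.09 and tatcaaTAGt at 1.60 ± 0.12, a difference of -0.40 (95% interval -0.69 to -0.12). Valine had 1.98 ± 0.06 for cccgtcTGAc and 1.41 ± 0.21 for ttagttTGAt in the authors' deposited table, a difference of 0.56 (interval 0.13 to 0.99). The arginine pair had 1.73 ± 0.05 for ccccgcTAAc and 1.39 ± 0.23 for tttagaTGAc, and the threonine pair 2.00 ± 0.07 for cccaccTAAc and 2.14 ± 0.12 for tatactTGAc, in the authors' deposited table. Threonine sequences were high at both ends, and intervals of the arginine and threonine pairs include 0.

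The AT-rich sequence of each of these 10 pairs had the higher response in the EJC-enhanced reporter. The largest gap was that of aspartate, where the authors' deposited table has tatgatTAGc at 6.46 ± 1.00 and cccgacTAAg at 2.64 ± 0.53. The valine sequence ttagttTGAt stood at 4.16 ± 0.85 against 2.14 ± 0.37 for cccgtcTGAc, and tatactTGAc for threonine at 4.21 ± 0.58 against 2.39 ± 0.28 for cccaccTAAc, in the authors' deposited table. For aspartate, arginine, threonine and valine the interval of the difference left out 0. The authors' deposited table gives no adjusted p for ttagttTGAt in this reporter, so the valine pair rests on a variant with no call.

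The other 6 pairs of the EJC-enhanced reporter had intervals that include 0. The smallest gaps were those of histidine, 2.49 ± 0.28 for ccccacTAAc and 2.66 ± 0.43 for tttcatTAGc, and of serine, 2.41 ± 0.36 for ccctccTGAt and 2.59 ± 0.51 for atttctTAAc, in the authors' deposited table. These pairs were chosen for high EJC-independent counts, the class in which AT-rich members of the EJC-enhanced reporter averaged 2.59, so they do not stand for the whole AT-rich end.

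In the EJC-independent reporter, the TGG counterparts of most GC-rich examples lay near 0 and were precise. For the EJC-independent reporter the authors' deposited table has 8 of these 10 between -0.10 and 0.18, with SEs from 0.04 to 0.12, beside 0.21 ± 0.04 for serine and -0.74 ± 0.28 for glutamate. The TGG counterparts of the AT-rich examples were less certain, and for aspartate the authors' deposited table gives 2.96 ± 1.17 at a mean count of 21.4. The SE of the TGG value was 0.91 for AT-rich glutamine, 0.78 for threonine and 0.63 for glutamate in the authors' deposited table, so stop minus TGG is imprecise for these sequences. For the EJC-enhanced reporter, the authors' deposited SEs of the TGG counterparts of GC-rich examples ran from 0.22 (cysteine) to 0.32 (glutamine, at 0.51).

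The members at the extremes of response, chosen by that response among members with a mean count of 100 or more, are given as a description. The 3 highest and 3 lowest of 3271 GC-rich and of 1232 AT-rich members of the EJC-independent reporter are shown to let their sequences be compared.
GC-rich, high, serine then proline: tcgccgTAGg
GC-rich, high, threonine then glycine: accggcTAGg
GC-rich, high, proline then glutamate: cccgagTGAg
GC-rich, low, glycine then proline: gggccgTGAc
GC-rich, low, alanine then tryptophan: gcctggTGAt
GC-rich, low, glycine then glutamine: gggcagTAGt
AT-rich, high, tyrosine then threonine: tatactTGAa
AT-rich, high, valine then isoleucine: gtaattTGAt
AT-rich, high, tyrosine then threonine: tatacaTGAg
AT-rich, low, leucine then histidine: ttacatTGAg
AT-rich, low, leucine then serine: ttatcaTAGt
AT-rich, low, isoleucine then tyrosine: atctatTAAa
Both tatactTGAa and tatacaTGAg encode tyrosine then threonine before TGA, and among the 3 lowest GC-rich members are 1 that ends in tryptophan and 1 that ends in glutamine. In the authors' deposited table tcgccgTAGg stands at 4.21 ± 0.49 (SE) and gggccgTGAc at 0.26 ± 0.50. Among AT-rich members the authors' deposited table has tatactTGAa at 3.58 ± 0.61 and ttacatTGAg at 0.08 ± 0.48. At mean counts from 10 up, GC-rich members ran from -1.42 to 4.91 and AT-rich members from -3.36 to 5.23. The extremes listed here, with mean counts of 100 or more, ran from 0.26 to 4.21 at the GC-rich and from 0.08 to 3.58 at the AT-rich end. Some kept their place in the EJC-enhanced reporter, where the authors' deposited table lists gggccgTGAc at 0.50 ± 0.71 and gtaattTGAt at 4.72 ± 0.79. Others did not, with tcgccgTAGg at 2.09 ± 0.36, gggcagTAGt at 3.53 ± 1.01 and ttatcaTAGt at 2.16 ± 0.37 in the authors' deposited table.

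The EJC-enhanced reporter had its own extremes, again chosen by their response, among 3510 GC-rich and 1205 AT-rich members.
GC-rich, high, aspartate then arginine: gaccggTAGa
GC-rich, high, glycine then glycine: ggaggcTAAt
GC-rich, high, proline then alanine: ccggcgTAAg
GC-rich, low, alanine then glutamine: gcgcagTAGc
GC-rich, low, arginine then glycine: aggggcTGAt
GC-rich, low, proline then arginine: cccaggTAAg
AT-rich, high, serine then asparagine: tctaatTAAg
AT-rich, high, tyrosine then leucine: tatttgTGAc
AT-rich, high, tyrosine then aspartate: tatgatTAGc
AT-rich, low, phenylalanine then isoleucine: tttataTAGg
AT-rich, low, histidine then leucine: catttaTAAt
AT-rich, low, phenylalanine then serine: tttagtTAGt
The authors' deposited table has the AT-rich tctaatTAAg at 7.23 ± 0.78, tatttgTGAc at 6.50 ± 0.70 and tatgatTAGc at 6.46 ± 1.00. The EJC-independent values of these sequences were 1.37 ± 0.08, 1.67 ± 0.20 and 1.94 ± 0.17 in the authors' deposited table, on either side of 1.61, the mean of that reporter's AT-rich members. At the GC-rich end gaccggTAGa reached 5.65 ± 0.79 in the authors' deposited table and stood at 1.88 ± 0.11 in the EJC-independent reporter. Precision varied among the lowest members, with aggggcTGAt at -0.46 ± 1.83 and cccaggTAAg at -0.33 ± 0.64 in the authors' deposited table. The lowest GC-rich member, gcgcagTAGc, stood at -1.14 ± 0.86 in the authors' deposited table, which gives it no adjusted p. Among the highest, ccggcgTAAg was the least precise at 5.32 ± 1.31 in the authors' deposited table.

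Windows of the same 6 bases showed almost no shared order between the reporters. Across 443 GC-rich windows measured in both, Pearson's r was 0.07 and Spearman's rho 0.12, and across 343 AT-rich windows r was -0.07 and rho -0.00092. These are descriptions over sequences from the same 2 libraries, whose depth differs between windows. The mean response was higher in the EJC-enhanced reporter in 396 of 443 GC-rich (89.4%) and 302 of 343 AT-rich windows (88.0%), by 0.46 on average at the GC-rich end and by 0.67 at the AT-rich end. Across all 3648 sense windows it was higher in 3265 (89.5%), by 0.56 on average, with r at 0.03 and rho at 0.05. The weak shared order and these shares are thus not particular to the ends. Each level is relative to the scaling of its own table.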

How the data were processed

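RNA of 12 libraries was compared by the submitters in 1 table per reporter. The submitters' processing notes name DESeq and DESeq2, without a version. How reads became variants was not given in the sources used here. Per the file headers, each variant has a mean normalized count, which is a signal the authors averaged over the 6 libraries of a reporter. The authors deposited beside it a log2 fold change, its SE (also log2), the Wald score and p-values before and after adjustment. No values per library were used, so library depth is unknown and the form of each comparison for tables without library values applied. In all, 41955 EJC-independent and 51306 EJC-enhanced variants are listed. At a mean count of at least 10, 20 and 207 of them have no adjusted p and stay out of counts of calls.

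The sign of the log2 fold change was turned, and mean counts under 10 were left out. Responses were averaged per window of 6 bases, then per last amino acid, with equal weights over the 10 that have both ends. A single amino acid can rest on as few as 2 windows. The 95% intervals assume a normal spread of windows, or of members, last codons or strata where these are named. Python 3.11.15, pandas 2.3.3, numpy 2.4.6 and scipy 1.17.1 were used, and the steps were tested on simulated data. The named sequences were the most counted member of each end and shared last amino acid, and the 3 highest and 3 lowest members per end and reporter with a mean count from 100 up. Members and lists were chosen with earlier results of these data known. Other settings of the count minimum, ends, weights, stop codon, following base and windows were tried.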

Additional observations from a re-analysis of the deposited data

How the results depend on the processing

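Of 288 recomputed values over 16 results, 248 stayed within the interval of the reported value (shares of calls: within their Wilson interval), 34 moved out of it and 6 reversed a value whose interval had left out 0. Of 272 recomputed differences, 33 had the opposite sign to the reported one, most of them of values whose interval includes 0. The cause was not tested. No paired analysis was possible because the tables hold no values per library, and for the same reason no library could be left out. In the EJC-independent reporter, the difference within the same last amino acid was 0.19 before T alone and -0.043 over windows with 6 or more of 12 stop variants, a setting chosen after seeing the data. Its TGG counterpart was -0.30 before C alone, and the difference over all last amino acids was 0.12 with ends at 4 to 6 and 0 to 2 G or C. The difference by penultimate codon was 0.0038 before G alone and -0.0040 without CG dinucleotides.

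For the EJC-enhanced reporter, the difference within the same last amino acid was -0.24 before C, 0.23 before G, 0.13 before T and -0.22 for variants listed in both tables. After subtraction of TGG it was 0.069 with the wider ends. Over all last amino acids it was -0.063 at mean counts from 50 up, -0.097 from 100 up, -0.078 from 100 to 400, -0.046 for TAA, 0.088 for TAG, -0.091 before C, 0.15 before G and -0.10 for variants listed in both tables. By penultimate codon it was -0.049 for TAA, 0.099 for TAG, 0.13 before G, 0.081 before T and -0.041 without CG dinucleotides. By the base that ends the last codon it was -0.016 from 100 up, -0.010 for TAA, -0.019 from 100 to 400 and -0.0095 for variants listed in both tables.

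Shares of members called higher rose with depth, by the authors' deposited adjusted p. With mean counts from 50 up, from 100 up and from 100 to 400, they were 96.7%, 99.1% and 97.4% at the GC-rich and 90.02%, 96.02% and 93.4% at the AT-rich end of the EJC-independent reporter. The EJC-enhanced reporter had 95.1%, 97.2% and 95.3% at the GC-rich and 89.5%, 93.2% and 92.3% at the AT-rich end. Leaving out aspartate moved the EJC-enhanced difference within the same last amino acid after subtraction of TGG to -0.12.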
